A study of Mus musculus with 6 samples.

Results

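The endoplasmic reticulum (ER) folds, oxidises and glycosylates proteins of the secretory pathway and sends the failures to the proteasome. This account describes 39 genes of that quality control system, chosen by symbol from the 22127 genes of an mRNA table. By role they were 5 sensors and transcription factors, 13 folding chaperones and their partners, 8 disulfide isomerases and oxidases, 12 factors of ER-associated degradation (ERAD), and Sec61b, a subunit of the channel through which new proteins enter the ER. All 39 were in the table and passed the filter of at least 10 reads in both libraries together, Derl3 with exactly 10. In 37 of them the reads came to at least 1000.

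The cells were GC-2 spd(ts), a mouse line derived from spermatocytes that carries the SV40 large T antigen together with a p53 variant active at low temperature. They went 12 h without serum. For the next 48 h the medium, which held 10% serum, contained 120 µM of the plastic monomer bisphenol A (BPA), dissolved in dimethyl sulfoxide, or 0.1% dimethyl sulfoxide as vehicle control (0 µM BPA). The labels do not give the dimethyl sulfoxide content of the BPA medium. One aliquot of RNA gave an mRNA library, and another, freed of ribosomal and linear RNA, gave a library of circular RNA (circRNA, formed by back-splicing), 1 of each per group. No value below therefore has a replicate error, nothing was tested between conditions, and the effect of BPA cannot be told apart from anything else in which the cultures differed, or fewer cells of a kind from less RNA per cell. Intervals cover the counting error of reads only. They can be too narrow even for that, because sequenced PCR copies need not stand for separate molecules.

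Depth was 32312872 mRNA reads for the control and 33071378 for BPA. Of 20 spermatocyte markers, 5 were listed in the table and 2 passed the filter, Syce2 with 1655 reads in control and 2151 with BPA and Hspa2 with 411 and 588. Sycp3 had 6 and 0 reads, Ddx4 had 0 and 9, Meiob had 3 and 0, and the other 15 markers, Sycp1, Dmc1 and Spo11 among them, were not in the table. Of 10 fibroblast and peritubular markers 7 passed the filter and all 7 were lower with BPA. Of them 4 were at least 2-fold lower, beside 4.61% of all genes past the filter and 0.985% of those with at least 1000 reads. Below the filter, Myh11 had 0 reads in control and 9 with BPA, and Dcn had 0 and 8. The 9 in the table summed to 136828 reads in control and 67843 with BPA, and the collagen genes Col1a1 (79234 and 39365 reads) and Col1a2 (41750 and 21120) held most of these. Collagens are themselves folded in the ER. Summed reads of Sertoli cell markers were 4282 and 5040, of Leydig cell markers 1800 and 2333, and of leukocyte markers 325 and 511. The part of these genes in the values below was not tested.

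Misfolded protein in the ER is sensed by 3 membrane proteins: IRE1 (gene Ern1), PERK (Eif2ak3) and ATF6. Activated IRE1 splices the mRNA of the transcription factor XBP1, ATF6 is cut to release a transcription factor, and PERK slows translation and raises the factor ATF4. XBP1 and ATF6 act through the ER stress element (ERSE) and related motifs in the promoters of chaperone and ERAD genes. ATF4 acts through the C/EBP-ATF response element (CARE).

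Promoter sequences come first, since the ratios are later set against them. RefSeq windows (GRCm38.p6) were matched for 35 of the 39 members, 39 windows in all; Atf6, Hyou1, Manf and Derl1 had none. The 250 bases before each start were searched on both strands for ERSE (CCAAT and CCACG with 9 bases of any kind between them), ERSE-II (ATTGG and CCACG with 1 base between them), the core of the unfolded protein response element, UPRE (TGACGTGG), and the core of CARE (TGATGCAA). No matches of different motifs overlapped in a member's window. ERSE and ERSE-II are known from promoters of chaperone and ERAD genes, so higher shares among the members are not an independent result. ERSE was in 10 of 39 member windows (25.6%) and in 0.113% of all 32851 windows. ERSE-II was in 1 member window, that of Herpud1, against 0.0304% of all. The UPRE core was in those of Txndc5 and Vcp, against 0.563% of all, and the CARE core in that of Herpud1 alone, against 0.791% of all. By role, ERSE, ERSE-II or the UPRE core was in the windows of 0 of 4 sensors, 6 of 11 chaperones, 3 of 8 isomerases and oxidases, and 4 of 11 degradation factors.

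The 11 ERSE matches of the 10 members, read in the orientation of the motif, are given here because these genes are set against Herpud1, Dnajb9 and Ero1l below, and capitals mark the fixed letters.
Hspa5: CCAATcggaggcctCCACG
Hsp90b1, farther from the start: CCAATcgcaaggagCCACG
Hsp90b1, nearer to the start: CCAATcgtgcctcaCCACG
Calr: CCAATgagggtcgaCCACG
Canx: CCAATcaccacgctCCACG
Dnajc3: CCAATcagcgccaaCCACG
Creld2: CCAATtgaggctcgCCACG
Pdia6: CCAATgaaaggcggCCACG
Ero1lb: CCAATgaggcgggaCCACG
Syvn1: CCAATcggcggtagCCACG
Derl3: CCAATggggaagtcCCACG

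A start site can differ between annotations, and 15 of the 35 members had bases of their own exons (GENCODE M21) inside a RefSeq window, 9 of them 30 bases or more. For Dnajb9 all 250 bases were exonic and for Hspa5 120, which include its ERSE. The search was therefore repeated in the 250 bases before the outermost GENCODE start, an alternative added after this was seen. ERSE was then found in 9 of the 35 members, the same genes without Hspa5, and in 0.0909% of 21999 windows. Atf6, Hyou1, Manf and Derl1 were left out of this member count too. The motifs of Herpud1 and Vcp were found again, that of Txndc5 was not, and Dnajb9 and Ero1l had none of the 4 motifs in either window.

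For 3 members with different motif content and ratios, a window free of annotated exons is printed 5′ to 3′ on the gene's strand, with motif matches in capitals. Herpud1 (chr8:94386179-94386428, plus strand, before the RefSeq start) holds the CARE core in reverse and then ERSE-II. Hsp90b1 (chr10:86705510-86705759, minus strand, before the GENCODE start) holds ERSE in both orientations, and Ero1l (chr14:45318772-45319021, minus strand, before the GENCODE start) holds none.
Herpud1: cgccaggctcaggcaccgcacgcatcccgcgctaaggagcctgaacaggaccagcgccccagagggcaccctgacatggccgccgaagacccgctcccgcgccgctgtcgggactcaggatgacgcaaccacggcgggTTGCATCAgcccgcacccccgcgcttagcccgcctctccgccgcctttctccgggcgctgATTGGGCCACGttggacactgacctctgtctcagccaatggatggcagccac
Hsp90b1: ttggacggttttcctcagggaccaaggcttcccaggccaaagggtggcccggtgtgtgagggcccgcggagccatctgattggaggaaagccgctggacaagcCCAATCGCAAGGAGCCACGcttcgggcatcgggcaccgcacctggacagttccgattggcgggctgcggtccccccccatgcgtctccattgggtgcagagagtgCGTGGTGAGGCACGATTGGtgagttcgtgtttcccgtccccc
Ero1l: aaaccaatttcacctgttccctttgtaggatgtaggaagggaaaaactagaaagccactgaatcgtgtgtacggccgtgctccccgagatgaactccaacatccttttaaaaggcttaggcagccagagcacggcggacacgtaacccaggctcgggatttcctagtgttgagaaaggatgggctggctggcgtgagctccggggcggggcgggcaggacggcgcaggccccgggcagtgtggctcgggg

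The 39 genes as a set were slightly higher in the BPA library, with a few far above the rest. Each ratio is of normalised reads on the log2 scale after adding 1, BPA over control. It was above 0 in 32 genes and below 0 in 7, and the median was 0.23. Over the 16870 genes that passed the filter the median was 0.016, with 51.9% above 0. Scaled by total reads, 36 members and 60.1% of all genes were above 0. Dnajb9, Ero1l and Herpud1 were at least 2-fold higher, 3 of 39 where 6.88% of all genes were. Among the 8628 genes with at least 1000 reads, which include 37 members, 1.36% were. None of the 39 was 2-fold lower, where 4.61% of all genes and 0.985% of those with at least 1000 reads were. At 1.5-fold the count was 7 higher, with Crebrf, Hspa5, Xbp1 and Os9 added, beside 13.3% of all genes and 3.93% of those with at least 1000 reads, and 0 lower, beside 10.2% and 4.2%.

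The counting interval lay above 0 in 29 members and below 0 in 4, beside 28.2% and 26.5% of all genes and 33.7% and 38% of those with at least 1000 reads. Below, a gene's reads in control and with BPA are followed in parentheses by its log2 ratio and the 95% counting interval. Exons of 11 members, Dnajb9 among them, overlap a gene on the opposite strand and those of 3 a gene on the same strand, and whether the counting used strand is not stated. The members together took 1.025% of the reads in control (exact binomial 95% interval 1.022% to 1.028%) and 1.200% with BPA (1.197% to 1.204%). On the scaling used for the ratios, the log2 ratio of the members' summed reads was 0.15 (0.14 to 0.16). The roles differed in their medians: 0.58 for the sensors, 0.33 for the degradation factors, 0.14 for the chaperones and 0.01 for the isomerases and oxidases. Without the 12 members that overlap another gene on either strand, Dnajb9 among them, 2 of 27 were at least 2-fold higher, the median of the 27 was 0.33, and that of the isomerases and oxidases was 0.16.

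**Figure D1:**
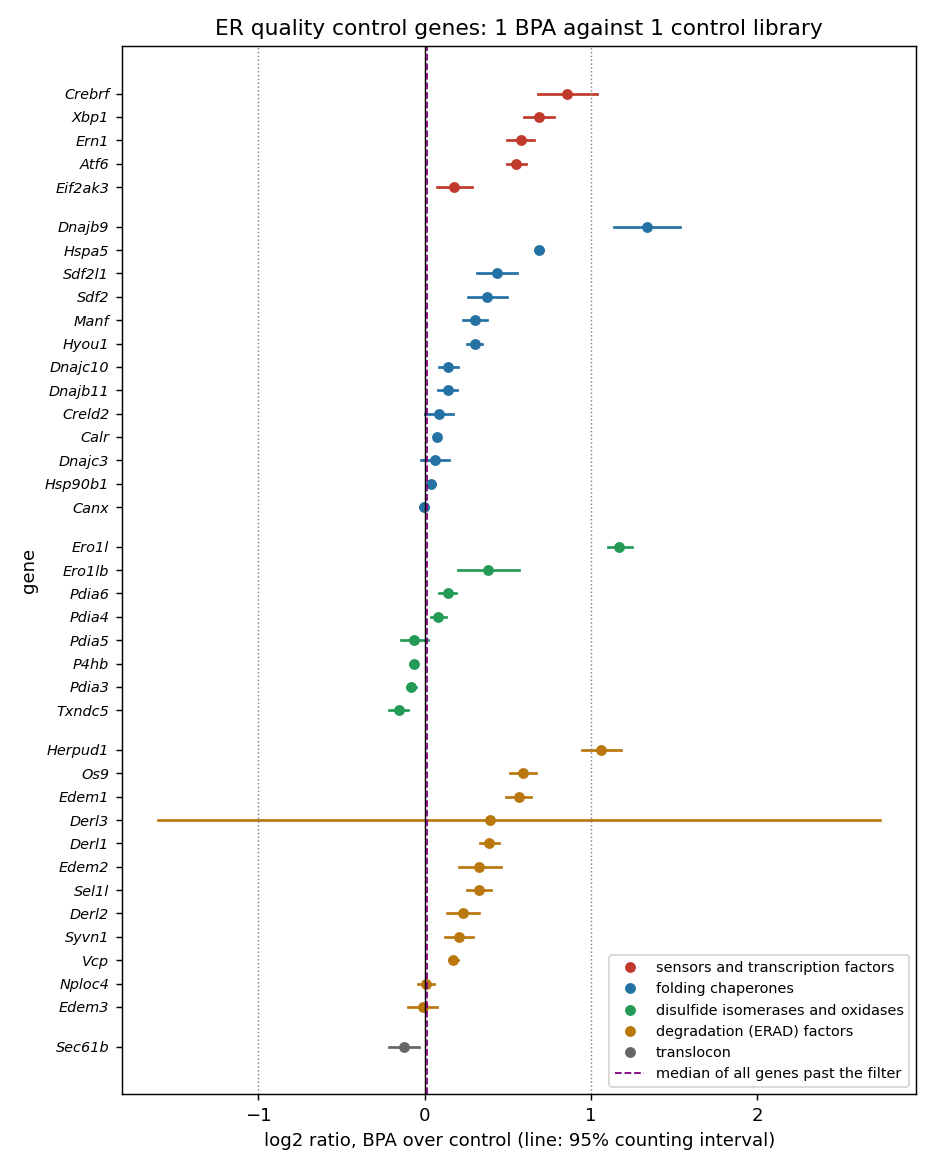
Log2 ratio of BPA over control for each of the 39 genes, by role, with 95% counting intervals as lines, 2-fold as dotted lines and the median of all genes past the filter as a dashed line. Dnajb9, Ero1l and Herpud1 lie beyond 2-fold, most chaperones and isomerases lie near 0, and Derl3, with 10 reads, has an interval from -1.60 to 2.74.

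All 5 sensors and transcription factors were higher in the BPA library, where 51.9% of all genes were. Their 5 intervals lay above 0, beside 28.2% of all genes and 33.7% of those with at least 1000 reads. Ern1, the kinase and endonuclease IRE1 (chr11:106394650-106487852), was counted 1998 times in control and 3225 times with BPA (log2 ratio 0.58, 0.50 to 0.66). Atf6 had 3902 and 6180 reads (0.55, 0.49 to 0.61). These 2 sensors were thus about 1.5-fold higher, at 1.49-fold and 1.47-fold. Eif2ak3, the kinase PERK, had 1273 and 1558 reads (0.18, 0.07 to 0.29), the smallest of the group. The ratio of Ern1 exceeded that of Eif2ak3 by 0.40 on the log2 scale (0.27 to 0.53) and that of Atf6 by 0.37 (0.25 to 0.49), differences between genes that no scaling of the libraries can move.

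Xbp1 (chr11:5520659-5525893), whose spliced mRNA encodes the active factor, had 1524 and 2652 reads (0.69, 0.60 to 0.78). Gene totals do not separate the spliced from the unspliced form. Crebrf, which promotes degradation of the ER stress factor CREB3, had 400 and 783 reads (0.86, 0.68 to 1.03), the largest of the group. Per length, all 5 were low in control, between 48.5 normalised reads per kb for Crebrf and 488 for Xbp1.

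Among the folding chaperones, Hspa5 and its co-chaperone Dnajb9 stood above the rest. Hspa5, the HSP70 of the ER lumen (BiP; chr2:34771970-34777547), was counted 22366 times in control and 38940 times with BPA (log2 ratio 0.69, 0.66 to 0.71) or 1.61-fold. Dnajb9 (ERdj4; chr12:44205559-44210326), a J-domain protein that brings BiP to misfolded proteins and to IRE1, had 288 and 787 reads (1.34, 1.14 to 1.54), the highest of the 39. Its level was low all the same, 117 normalised reads per kb in control and 297 with BPA, where Hspa5 had 5497 and 8859.

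The other J-domain partners were near 0. Dnajb11 had 4521 and 5378 reads (0.14, 0.08 to 0.20), and Dnajc10, which also reduces disulfides, had 4559 and 5439 (0.14, 0.09 to 0.20). Dnajc3, the inhibitor P58IPK, had 2156 and 2433 (0.06, -0.02 to 0.15). The ratio of Dnajb9 was 1.20 above that of Dnajb11 (1.00 to 1.40) and 1.28 above that of Dnajc3 (1.06 to 1.49).

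Other partners of BiP and of its J-domain proteins ranged from 0.09 to 0.43. Hyou1, a nucleotide exchange factor, had 6782 and 9026 reads (0.30, 0.26 to 0.35). Manf, a secreted and ER-resident BiP cofactor, had 2660 and 3543 (0.30, 0.23 to 0.38), and its exons overlap those of Rbm15b on the same strand. Sdf2 and Sdf2l1, related partners of Dnajb11, had 1023 and 1435 reads (0.38, 0.26 to 0.49) and 941 and 1373 (0.43, 0.31 to 0.55), and their ratios differed by 0.06 (-0.11 to 0.22), an interval that includes 0. Creld2 had 2145 and 2462 (0.09, 0.00 to 0.17).

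The abundant chaperones of the lumen and membrane were nearly level. Calr, the calcium-binding lectin calreticulin and the most abundant member per length, had 80078 and 90971 reads (0.07, 0.06 to 0.09), or 28901 and 30389 normalised reads per kb. Its membrane relative Canx, calnexin, had 27781 and 29973 (-0.00, -0.03 to 0.02). Hsp90b1, the HSP90 of the ER (GRP94), had 27034 and 30005 (0.04, 0.02 to 0.06), and its exons overlap 2 small annotated genes on the same strand. The ratio of Hspa5 was 0.65 above that of Hsp90b1 (0.62 to 0.68) and 0.39 above that of Hyou1 (0.34 to 0.44). As a group, 12 of 13 chaperones were above 0, beside 51.9% of all genes, and 11 had intervals above 0, beside 28.2% of all genes and 33.7% of those with at least 1000 reads. Their share of all reads was 0.564% (0.562% to 0.567%) and 0.671% (0.668% to 0.673%). On the scaling used for the ratios, the log2 ratio of their summed reads was 0.17 (0.16 to 0.18). Of the 182334 and 221765 summed reads, Hspa5 held 22366 and 38940.

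The disulfide isomerases were level while the oxidase that feeds them was not. Ero1l (ERO1α; chr14:45283087-45318771), which takes electrons from isomerases and passes them to oxygen, was counted 2185 times in control and 5323 times with BPA (log2 ratio 1.17, 1.10 to 1.25). Its paralog Ero1lb had 411 and 580 reads (0.38, 0.20 to 0.57), and the 2 ratios differed by 0.79 (0.59 to 0.98). P4hb, the main protein disulfide isomerase and also a subunit of collagen prolyl hydroxylase, had 43178 and 44578 reads (-0.07, -0.08 to -0.05). Ero1l was 1.24 above P4hb (1.16 to 1.31).

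Of the other isomerases, Pdia3, which works with calnexin and calreticulin on glycoproteins, had 21801 and 22271 reads (-0.08, -0.11 to -0.05). Txndc5 had 4873 and 4727 (-0.16, -0.21 to -0.10), the lowest ratio of the 39, and Pdia5 2492 and 2581 (-0.06, -0.14 to 0.02). Pdia4 had 7828 and 8963 (0.08, 0.04 to 0.13), and its exons overlap a microRNA gene; Pdia6, which also damps IRE1, had 5692 and 6780 (0.14, 0.09 to 0.19). The 6 isomerases therefore all lay between -0.16 and 0.14. Signs this close to 0 depend on the scaling: by the share of all reads, the ratios of P4hb, Pdia5, Canx and Edem3 were above 0, and that of P4hb was 0.01. The group of 8, Ero1l included, took 0.274% of reads in control (0.272% to 0.276%) and 0.290% with BPA (0.288% to 0.292%). On the scaling used for the ratios, however, the log2 ratio of their summed reads was 0.003 (-0.010 to 0.017).

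Of the degradation factors 11 of 12 were above 0, again beside 51.9% of all genes, with Herpud1 at the top. Herpud1 (chr8:94386438-94395377), a membrane protein that assembles the ubiquitin ligase complex, was counted 859 times in control and 1942 times with BPA (log2 ratio 1.06, 0.95 to 1.18). The ligase itself, Syvn1 (HRD1), had 2097 and 2619 (0.21, 0.13 to 0.29), and its partner Sel1l 2678 and 3635 (0.33, 0.26 to 0.40). Herpud1 was 0.86 above Syvn1 (0.71 to 1.00), so members of 1 complex differed in ratio.

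The lectins and mannosidase-like proteins that pick out misfolded glycoproteins were uneven. Os9, a lectin, had 2245 and 3658 reads (0.59, 0.52 to 0.67). Edem1 had 2337 and 3743 (0.57, 0.49 to 0.64), Edem2 892 and 1212 (0.33, 0.20 to 0.46) and Edem3 2145 and 2299 (-0.01, -0.10 to 0.07). Edem1 and Edem3, close in level at 376 and 349 normalised reads per kb in control, thus differed in ratio by 0.58 (0.47 to 0.69).

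Of the derlins, which form the exit channel, Derl1 had 4078 and 5771 reads (0.39, 0.33 to 0.45) and Derl2 1607 and 2039 (0.23, 0.14 to 0.33). Derl3 had 4 and 6 reads, too few to place. Vcp, the cytosolic ATPase p97 that pulls substrates out, had 23639 and 28807 (0.17, 0.15 to 0.20), and its cofactor Nploc4 had 6620 and 7202 (0.01, -0.04 to 0.06). Sec61b, of the entry channel, had 2117 and 2099 (-0.12, -0.21 to -0.04).

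Across the 39 genes together the higher ratios were found at the lower levels, but not within every role. The 19 members with the most normalised reads per kb in control, 888 and above, had a median ratio of 0.08, and the other 20 had 0.39. Spearman's rho between the level per kb over both libraries and the ratio was -0.49 over the 39 genes, and -0.15 over 8623 genes with at least 1000 reads. By role it was -0.60 for the 8 isomerases and oxidases, -0.41 for the 13 chaperones and -0.04 for the 12 degradation factors. This is a description across genes of the same 2 libraries, which are not independent replicates, and the level and the ratio share their reads. Hspa5, at 0.69, had the highest ratio of the 19.

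**Figure D2:**
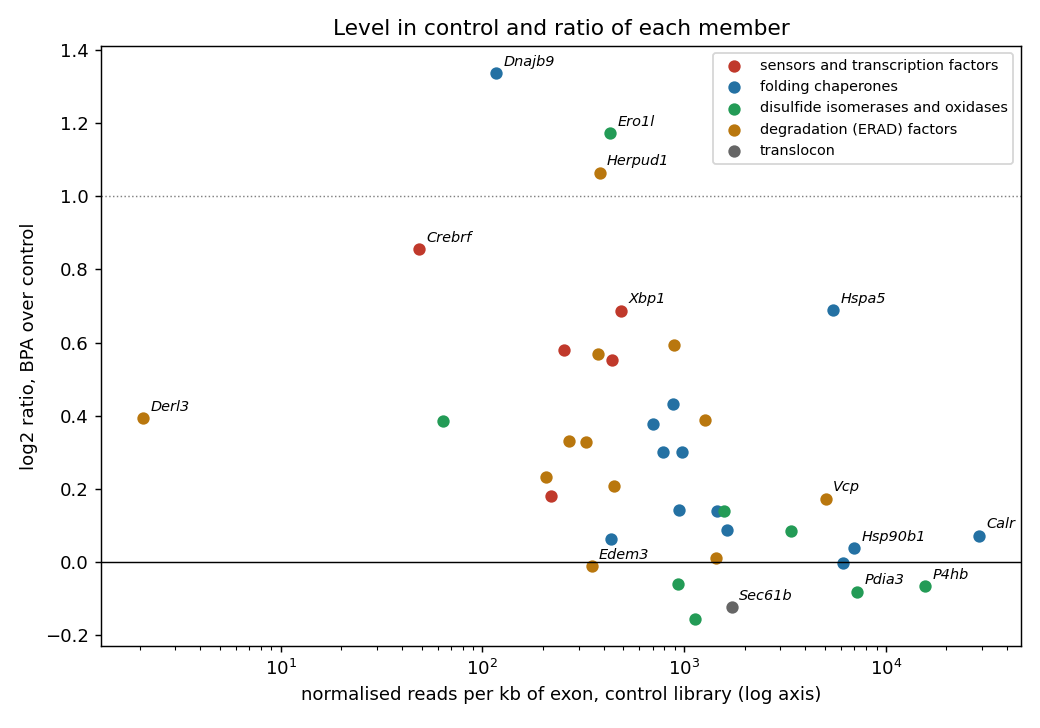
Log2 ratio of BPA over control against the level in control, as normalised reads per kb of exon on a log axis, for the 39 genes coloured by role. The 3 genes beyond 2-fold lie between 117 and 430 reads per kb, and Calr and P4hb, the most abundant, lie near 0, with Hspa5 at 0.69 the highest of the abundant genes.

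The ratios were then set against the motifs printed above. The 10 members with an ERSE in the window had a median ratio of 0.11 and ran from -0.00 (Canx) to 0.69 (Hspa5), and none was 2-fold higher. A further 4 with 1 mismatch in the fixed letters and no other motif, Pdia3, Pdia4, Derl2 and Sel1l, had a median of 0.16, and Txndc5 and Vcp, with the UPRE core, were at -0.16 and 0.17. Herpud1, with ERSE-II and the CARE core, was at 1.06. The 18 with none of these had a median of 0.35 and ran from -0.12 to 1.34, with Dnajb9, Ero1l, Crebrf and Xbp1 at the top. With both start annotations together, the ERSE genes were the same 10, and the 22 with none of the 4 motifs had a median of 0.28. Atf6, Hyou1, Manf and Derl1 are in neither group, so the set of ERSE genes may be incomplete. Matches with 1 mismatch were sought in the RefSeq windows alone. The RefSeq window of Herpud1 ends within such a match to ERSE, which its window before the GENCODE start holds in full. A match is a run of letters and not a shown binding site, and its absence concerns only the windows searched.

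**Figure D3:**
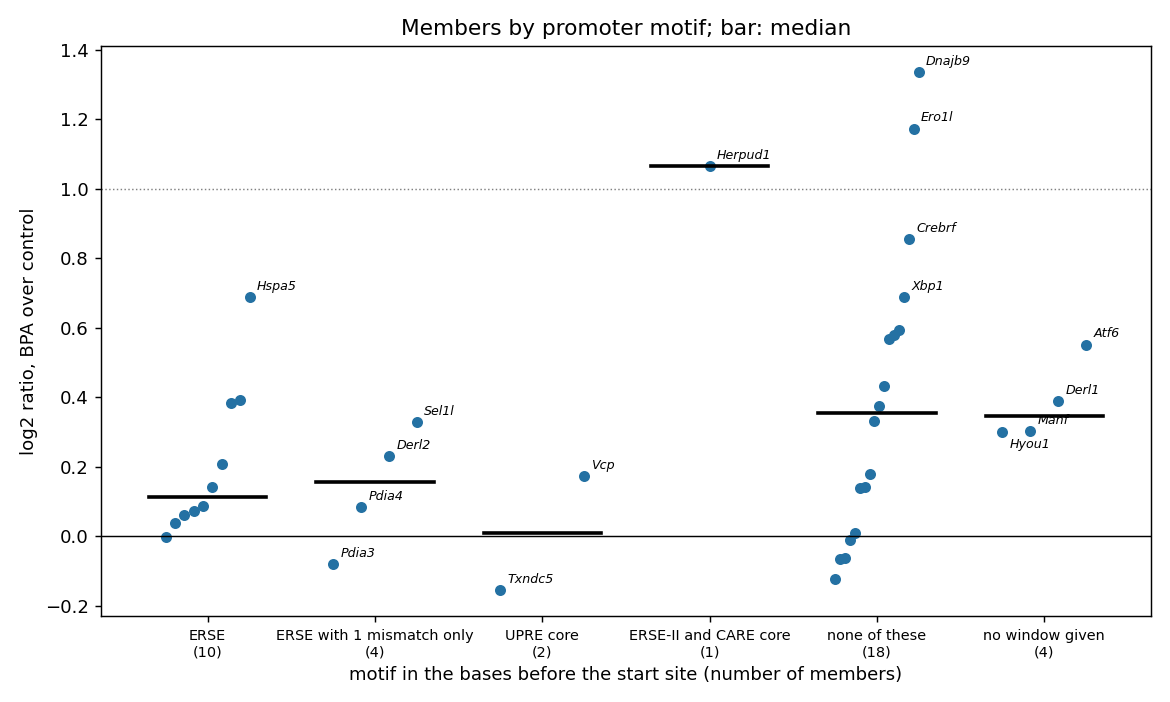
Log2 ratio of BPA over control for the 39 genes, grouped by the motif found in the 250 bases before the start site, with a bar at the median of each group. The ERSE group lies between -0.00 and 0.69, and 2 of the 3 genes beyond 2-fold are in the group with none of the motifs.

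Other genes of the ER and its stress pathways were taken in 11 lists, and the highest and lowest genes named are those among members with at least 50 reads. The ATF4 arm was far higher, with a median of 1.28. At least 2-fold higher were 10 of 14 genes, beside 6.88% of all genes and 1.36% of those with at least 1000 reads. None was 2-fold lower, beside 4.61% and 0.985%. The activity of PERK was not measured, and the part of PERK or of ER stress in these ratios was not tested. In this list Trib3, a pseudokinase that restrains ATF4, was at 2.69, Ddit3, the factor CHOP, at 1.54 and Atf4 at 0.69. Eif2s1, the translation factor that PERK phosphorylates, was lowest at -0.24. Receptors that direct ER fragments to autophagy, 8 genes, had a median of 0.24, from Rtn3 at -0.31 to Calcoco1 at 0.80.

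Of 33 other degradation factors 27 were above 0, beside 51.9% of all genes. Their median was 0.19, from Cav1 at -0.46 to the rhomboid protease Rhbdd1 at 0.84. Cav1, which the list counts, is caveolin-1 of the plasma membrane and not a degradation factor. The next lowest was Yod1 at -0.23. Among 24 other ER chaperones it was -0.01, from Mesdc2 at -0.65 to Cnpy2 at 0.61, and among 16 other thiol oxidoreductases 0.03, from the peroxidase Gpx8 at -0.60 to Qsox2 at 0.43. None of the genes in these 3 lists was 2-fold higher, beside 6.88% of all genes and 1.36% of those with at least 1000 reads. None was 2-fold lower, beside 4.61% and 0.985%. As among the members, the degradation factors had a higher median than the chaperones and the thiol enzymes; the difference was not tested.

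For translocation and signal peptide cleavage the median over 25 genes was 0.09, from Tram2 at -0.72 to the signal peptidase subunit Spcs1 at 0.94. For N-glycosylation it was 0.00 over 26 genes, from Dpagt1 at -0.25 to Alg5 at 0.67, and for transport to the Golgi 0.04 over 23, from Sec23ip at -0.19 to Sec31b, with 13 and 47 reads, at 1.67. Other regulators of ER stress had a median of 0.12 over 13, from Creb3l1 at -0.95 to Wfs1 at 1.04. The list for ER calcium had a median of -0.00 over 14 genes. It ran from Orai1, a channel of the plasma membrane, at -0.36 to the pump Atp2a3, with 7 and 153 reads, at 4.16. The cytosolic heat shock genes lay on the other side, with a median of -0.20 over 20, from Hsph1 at -0.55 to Dnajb4 at 0.86. Of the 20, 18 were below 0, where 8121 of all 16870 genes were.

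**Figure D4:**
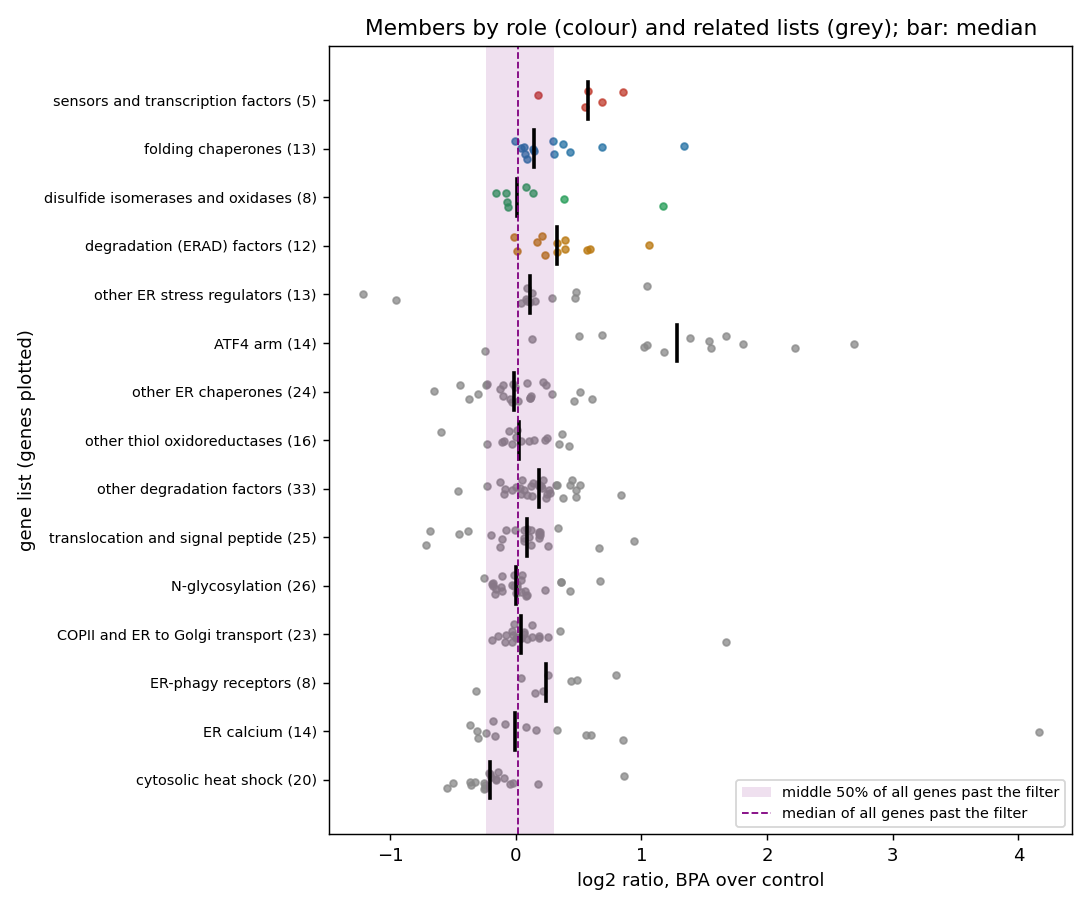
Log2 ratio of BPA over control for each gene of the 4 larger role groups (colour) and of 11 related lists (grey), with a bar at each median and, shaded, the middle 50% of all genes past the filter. The ATF4 arm lies far to the right, at a median of 1.28, the sensors next at 0.58, and cytosolic heat shock genes to the left at -0.20.

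Circular RNA of the same genes was a second, sparse readout. Back-splice events numbered 12909 in the control circRNA library and 17586 in that of BPA. In them 62 circRNAs came from 18 of the 39 genes, with 44 and 99 events, 0.341% and 0.563% of all events. The log2 ratio of the summed events was 0.89 after TMM scaling (0.37 to 1.44) and 0.71 by share of all events (0.20 to 1.27). Without Canx, the gene with the most events, it was 0.76 (0.16 to 1.40).

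Only 12 of the 62 circRNAs had events in both libraries, 17 had them in control alone and 33 with BPA alone, and no circRNA had more than 9 events in a library. Of the 5 members with at least 10 events in both libraries together, Canx had 10 and 29 events, Atf6 5 and 14, Ern1 4 and 12, Pdia5 4 and 15, and Vcp 7 and 5. The TMM-scaled interval lay above 0 for Canx alone (1.22, 0.18 to 2.46), where it did for 9.35% of the 695 host genes with as many events; it lay below 0 for 0 members and 4.46% of hosts. By share of all events the counts were again 1 (Canx) and 0, beside 6.47% and 6.19% of hosts. The linear mRNA ratio of Canx was -0.00, and that of Pdia5, whose circRNA interval included 0 (1.51, -0.02 to 3.68), was -0.06. Dnajb9 and Herpud1 had no circRNA in the table, and Ero1l had 1 event in each library.

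In the authors' deposited table, whose p-values compare 1 library with 1, Hspa5 ranked first of the members by p. The 3 genes beyond 2-fold, Dnajb9, Ero1l and Herpud1, ranked there behind members with smaller ratios, such as Derl1 and Sel1l. The lowest adjusted value of the members there was 0.961.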

How the data were processed

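Per the submitters' processing notes, reads of the mRNA libraries were handled with STAR and StringTie and those of the circRNA libraries with STAR, on GRCm38 and mm10. For counting, circRNA calling, annotation release and strand setting, nothing is stated there or in the labels. As deposited, mRNA levels are log2 of a read count times a factor per library, with 1 added. Whole reads were recovered from 100% of the values of both libraries within a tolerance of 0.001, and the authors' scaling was kept. The deposited circRNA log2 values gave whole event counts, with every value, off the log scale and less 1, even, and 2 units were taken as 1 event; with 1 unit per event the intervals would be narrower. The p-values of the authors' deposited table come from 1 library against 1.

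The log2 ratio is that of the normalised reads with a pseudocount of 1, over the 16870 genes with at least 10 reads in both libraries together. The counting interval is the exact conditional binomial (Clopper-Pearson) 95% interval of the reads (SciPy 1.17.1 in Python 3.11.15). The difference of 2 genes' ratios has a Wald interval from the 4 counts. Scaling by the trimmed mean of M-values (TMM) was computed in Python for an alternative of the mRNA ratios and for circRNA, where 0.5 events were added. The scripts were tested on simulated data. With 1 library per group no test between conditions could be made. Exon lengths, gene positions and overlaps come from GENCODE M21 (GRCm38), start-site windows from RefSeq (GRCm38.p6), and windows before the GENCODE starts from the GRCm38 genome. The members, their roles, the other lists, the motifs and the pairs of genes compared were chosen with earlier results of these data known. All 39 members were to be named, with the highest and the lowest gene of each other list among those with at least 50 reads, and Ddit3, Atf4 and Trib3. The alternatives tried were other pseudocounts, scalings and filters, removal of the trend on GC content, and leaving out members whose exons overlap another gene on the same strand or, added after the data were seen, on either strand.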

Additional observations from a re-analysis of the deposited data

How the results depend on the processing

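No paired analysis was possible because each group had 1 library, and for the same reason no replicate could be left out. The counts of 3 members at least 2-fold higher and 0 lower were the same under the other pseudocounts, scalings and filters and with the GC trend removed. The count of 3 was also the same without the 3 members whose exons overlap another gene on the same strand. Without the 12 that overlap one on either strand it was 2, with Dnajb9 left out, and the medians were 0.33 for all members left and 0.16 for isomerases and oxidases, of which 4 were left. Scaling by total reads raised the median of all genes by 0.08. Under it the medians were 0.22 for folding chaperones, 0.089 for disulfide isomerases and oxidases, 0.17 for translocation, 0.12 for transport to the Golgi, 0.075 for ER calcium and -0.13 for cytosolic heat shock, and P4hb, at -0.07 as reported, was at 0.013. Of the single members, 20 others moved beyond their counting intervals under that scaling and 18 did not. Then 36 members were above 0, beside 60.1% of all genes, and TMM scaling gave 31. Leaving out same-strand overlaps put the isomerase median at -0.061, with Pdia4 dropped. With the windows before the GENCODE starts, 9 members held an ERSE in place of 10. The share of all genes at least 2-fold higher was 6.88%, and 1.36% with at least 1000 reads. Depth limits Derl3 and the circRNA counts.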

Other observations

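The CARE core found before Herpud1 was looked up in the other genes that passed the filter and had a RefSeq window. It was in the windows of 71 of them. Of these 22 (31.0%) were at least 2-fold higher in the BPA library and 2 (2.82%) at least 2-fold lower, where 6.25% and 3.18% of all 10857 such genes were. Their median log2 ratio was 0.27, and 0.34 over the 41 with at least 1000 reads, beside 0.03 and -0.01 over all such genes. For the UPRE core the corresponding shares were 3.26% and 4.35% of 92 genes, with a median of 0.02. An ERSE was in the windows of 9 genes outside the 39, with 1 of them 2-fold higher. In the windows before the GENCODE starts the CARE core preceded 91 such genes, of which 19 (20.9%) were at least 2-fold higher and 4 (4.4%) lower, beside 6.86% and 4.61% of 16745. Their median was 0.15, lower than with the RefSeq windows, beside 0.015 over all. These shares describe 2 libraries and were not tested.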
